A study of Rattus norvegicus with 6 samples.

Results

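The subject is the set of genes for the proteins of the cytosolic ribosome in cultured cortical neural progenitors of the rat. Members were taken by name from the deposited gene tables: every symbol that starts with Rpl or Rps and a digit, or is Rplp followed by a digit or Rpsa, leaving out the Rps6k kinases and names that end in bp1. The rule found 85 of 17337 gene names, 51 for the large and 34 for the small subunit. Among them, 77 are the canonical subunit genes (46 large, 31 small), and all 77 of the list were present. The other 8 are 6 paralogues (Rpl3l, Rpl22l1, Rpl36al, Rpl39l, Rps27l and Rps4y2) and 2 names marked as pseudogenes (Rpl37a-ps1 and Rps4x-ps1).

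The cells came from the cortex of Sprague Dawley rats at embryonic day 14. They were grown in culture with bFGF and EGF, the growth factors that keep neural progenitors dividing, and collected after the second passage. The polyA-selected RNA came from biological replicates called A and B (n = 2), and each was sequenced as a pair of technical libraries, A1 with A2 and B1 with B2. There was a single condition with no treatment, transgene or control group, so that the comparisons open to these data are among genes and between replicates. Levels are FPKM, a read density scaled for transcript length and library size, averaged over the technical libraries within A and within B and given as the mean of the 2 replicates with the SD (n = 2). With 2 replicates no test between them was possible, and a count of genes that differ is set beside the same count over all genes. The Start-seq libraries of the series were not analysed here.

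Each ribosome holds, as a rule, a single copy of nearly every one of its proteins, and cells make the proteins of both subunits in similar numbers. Their mRNAs are among the most abundant of any dividing cell. Most of them start with a C followed by a stretch of pyrimidines, the 5′ terminal oligopyrimidine (TOP) motif, through which the mTOR pathway controls their translation. Translation factors such as Eef1a1 carry the same motif. In the developing cortex, progenitors have a high demand for ribosomes while they grow and divide.

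The label of the cells was checked against marker genes. Of 10 neural progenitor markers 9 were listed, all with a mean of at least 1 FPKM, and they summed to 20871 and 22935 FPKM in A1 and A2 and to 9939 and 10660 FPKM in B1 and B2, most of it from Fabp7. Sox2, a transcription factor of neural stem cells, stood at 356 FPKM or more in every library. Mesenchyme and meninges markers, the collagen genes among them, summed to 660 and 641 FPKM in A1 and A2 and to 2482 and 2995 FPKM in B1 and B2, and 8 of 8 had a mean of at least 1 FPKM. Neuron markers summed to 124 to 163 FPKM, microglia markers to at most 1.34 FPKM and endothelial markers to at most 2.37 FPKM. The tables give no read count for a value or a library, but coverage per FPKM, which is proportional to depth, was 24.3 and 22.7 in the libraries of A and 24.4 and 6.83 in those of B. Library B2 was the shallowest of the 4, and values with and without it are given where it matters.

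RefSeq starts were matched for 68 of the 85 members, 62 of them canonical, and the sequence around the annotated start (assembly GRCr8) was examined for the TOP motif. The next lines show 15 bases before the start and 15 from it on for the members that the results turn on, so that the sixteenth letter is the annotated start. Capitals mark the longest stretch of at least 5 bases of C and T that begins with a C no more than 10 bases from the annotated start. Where pyrimidines go on further upstream, as in Rpl13a, Rps2, Rpl5 and Rpl35, those letters are not marked and not counted in its length. The first set holds the 5 members with the highest mRNA level.
Rpl13a (chr1:104748899-104748928, minus strand): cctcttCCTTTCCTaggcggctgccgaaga
Rpl35 (chr3:43165907-43165936, minus strand): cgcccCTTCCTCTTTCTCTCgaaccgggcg
Rpl41 (chr7:1563483-1563512, minus strand): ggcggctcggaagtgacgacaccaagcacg
Rps2 (chr10:14251833-14251862, plus strand): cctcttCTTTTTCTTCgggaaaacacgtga
Rps15 (chr7:10068101-10068130, minus strand): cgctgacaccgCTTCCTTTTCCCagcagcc
The second set holds the lowest canonical members for which the table had a start. Rps27a had 2 annotated starts.
Rpl10a (chr20:6390518-6390547, plus strand): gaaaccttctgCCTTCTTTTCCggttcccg
Rpl28 (chr1:78083518-78083547, minus strand): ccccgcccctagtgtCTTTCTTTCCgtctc
Rpl36a (chrX:102059434-102059463, plus strand): ccgcctataaaCTTCCgttgctgctctagc
Rps27a (chr14:107488871-107488900, minus strand): ttccgatccgccatcgttggtgagtgtgtg
Rps27a (chr14:107488927-107488956, minus strand): cctaaagggcggttCCTTCgacccggagac
The third set holds the P stalk proteins, with which the ribosome recruits translation factors, and the proteins bound to 5S rRNA.
Rplp0 (chr12:46718376-46718405, minus strand): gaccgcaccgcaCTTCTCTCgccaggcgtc
Rplp1 (chr8:71290858-71290887, minus strand): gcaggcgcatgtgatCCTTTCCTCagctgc
Rplp2 (chr1:205975906-205975935, plus strand): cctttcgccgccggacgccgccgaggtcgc
Rpl12 (chr3:36661925-36661954, plus strand): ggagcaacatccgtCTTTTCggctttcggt
Rpl5 (chr14:1995211-1995240, minus strand): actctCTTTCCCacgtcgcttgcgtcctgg
Rpl11 (chr5:153560788-153560817, minus strand): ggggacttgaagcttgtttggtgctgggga
The fourth set pairs Rpl22 and Rps27 with the paralogue of each.
Rpl22 (chr5:168117946-168117975, plus strand): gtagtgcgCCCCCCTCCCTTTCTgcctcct
Rpl22l1 (chr2:113683181-113683210, plus strand): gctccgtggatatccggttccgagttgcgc
Rps27 (chr2:177964592-177964621, minus strand): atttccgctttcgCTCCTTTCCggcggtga
Rps27l (chr8:76443643-76443672, plus strand): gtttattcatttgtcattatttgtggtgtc

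In the highest set, 4 of 5 genes had such a run and Rpl41 had none. Every gene of the lowest set had one, Rps27a at 1 of its 2 starts. In the third set Rplp2 and Rpl11 had none within 10 bases of the start, and the other genes had one. The printed line of Rplp2 opens with cctttc, which lies further upstream than that limit and was not counted. Rpl22 and Rps27 had a run, and their paralogues had none in this window, while 3 of the 6 paralogues with a start (Rpl3l, Rpl36al and Rps4y2) had one.

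Over the 63 annotated starts of 62 canonical genes, the start base itself was a C followed by at least 4 pyrimidines in 24 (38.1%). The same was found at 2.63% of all 33469 promoters of the table and at 4.64% of 883 promoters of genes whose level reached 100 FPKM. A run starting within 10 bases was found at 47 of the 63 (74.6%), against 28.9% of all promoters and 33.6% of those of genes with at least 100 FPKM. The annotated start was a C in 34 of the 63, a G in 12, a T in 11 and an A in 6, and the stretch counted this way had a median length of 10 bases and a maximum of 21. By subunit, the C and 4 pyrimidines at the start itself were found at 17 of 38 (44.7%) large and 7 of 25 (28.0%) small subunit starts. A run within 10 bases was found at 28 of 38 (73.7%) and 19 of 25 (76.0%) starts.

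Other letter patterns were counted alongside it. TCTTT within 10 bases of the start, which can overlap a pyrimidine run, was found at 19 of 63 canonical starts (30.2%) and at 2.47% of all promoters. CCGGAAG, the core bound by ETS and GABP factors, occurred on either strand in 20 windows from 250 bases before to 50 after the start (31.7%), against 8.75% of all promoters, 18.2% of those of genes with at least 1 FPKM and 21.3% of those of genes with at least 100 FPKM. The share was 32.1% for mitochondrial ribosomal protein genes, 34.3% for proteasome genes and 48.1% for assembly factors, so this pattern was no more frequent in the members than in these groups. GATGGC, the core of YY1 sites, was in 18 (28.6%), against 14.4% of all promoters, 16.3% of those of genes with at least 1 FPKM, 32.1% of the mitochondrial and 34.3% of the proteasome group. The GC box GGGCGG was in 37 (58.7%), against 33.1% of all promoters and 64.5% of those of genes with at least 1 FPKM. TATAAA was in 6 (9.52%), against 14.2% and 6.22% in the same order.

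The mitochondrial ribosome and the proteasome, which are also large complexes of fixed composition, were counted in the same way, with no test of the difference. A C and 4 pyrimidines at the start itself were found for 2 of 56 promoters of mitochondrial ribosomal protein genes and 1 of 35 of proteasome genes, and a run within 10 bases at 35.7% and 34.3%. Ribosome assembly factors had the C and 4 pyrimidines at the start for 2 of 27 promoters and a run within 10 bases at 25.9%. Other mRNAs known to carry the TOP motif had the first at 0 of 13 and the second at 9 of 13 (69.2%). These are counts of letters at annotated starts, which were not measured in these RNA libraries. The paper reports that many RefSeq starts of rn6 were displaced from those it measured by Start-seq. It also found no enriched sequence at the RefSeq positions. How far the GRCr8 starts used here lie from measured starts was not tested, which limits the counts at the start itself most. Among canonical genes, the median level was 1023 FPKM over 47 genes with a run within 10 bases. It was 1417 FPKM over 16 genes with a start without one, Rps27a being in both groups. Of the latter, Rpsa, Rplp2, Rps3 and Rpl7a had a stretch of C and T that began with a C more than 10 bases upstream. The medians thus depend on where the annotated start lies and do not compare genes with and without the motif.

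Ribosomal protein mRNA made up 14.2% and 15.6% of all TPM (an abundance scaled to the same total in every library) in A1 and A2, and 19.1% and 17.2% in B1 and B2. Both libraries of B were above both of A. As a mean over replicates the share was 16.5% ± 2.29 (SD, n = 2). The large subunit names took 8.65%, 9.45%, 11.5% and 10.3% in the same order of libraries, and the small subunit names 5.60%, 6.15%, 7.60% and 6.99%.

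**Figure D1:**
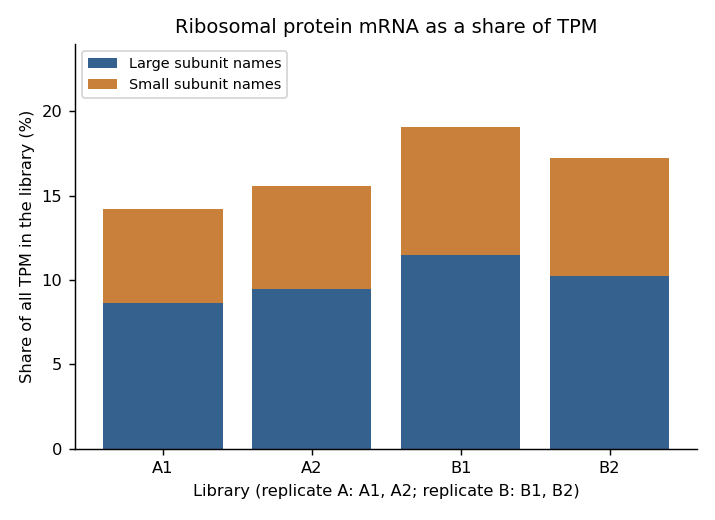
Share of all TPM in each library (percent, vertical axis from 0) held by the 51 large subunit names (lower part of each bar) and the 34 small subunit names (upper part). The total ran from 14.2% in A1 to 19.1% in B1, and each bar is 1 library.

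Of the 85 members, 81 had a mean of at least 100 FPKM, 61 were among the 100 genes with the highest mean and 80 among the highest 500. The 51 canonical genes with at least 1000 FPKM made up 60% of the 85 genes at that level in the whole table. The median over all members was 1116 FPKM, with 977 FPKM in A and 1248 FPKM in B. Canonical genes ranged from 480 to 2355 FPKM with a median of 1229 FPKM, so that the highest exceeded the lowest 4.90-fold, and 72 of 77 (93.5%) lay within 2-fold of the median. FPKM is scaled by transcript length, which allows levels to be set side by side between genes, with exceptions. The assignment of reads shared by copies of a gene is uncertain, as described below. The leading rows of Rpl35a, Rpl7a, Rpl8, Rplp2, Rps6 and Rps9 had a coverage of 0.5 times what their FPKM gave for other rows of the library, and that of Rpl37a 0.444 to 0.463 times, so the deposited values leave the levels of these 7 genes uncertain by about 2-fold. Between replicates the canonical genes had a median coefficient of variation of 15.9%, from 0.859% for Rpl38 to 35.8% for Rps29, the genes at both ends being named after their values were seen.

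The 5 highest members encode proteins from different places in the ribosome. Rpl13a, a large subunit protein that is also known as a regulator of translation outside the ribosome, had 2039, 2313, 2797 and 2269 FPKM in A1, A2, B1 and B2. Rpl35, at the mouth of the tunnel through which the new protein chain leaves, had 1866, 2273, 2561 and 2627 FPKM. Rpl41, the smallest ribosomal protein, had 1859, 2142, 2773 and 2376 FPKM. A1 was the lowest library for all 3, and B1 the highest for Rpl13a and Rpl41. Rps2, at the mRNA entry of the small subunit, had 1835, 2079, 2541 and 2319 FPKM. Rps15, which sits in the head of the small subunit, had 1910, 2298, 2519 and 1868 FPKM. The libraries of A and B overlapped for Rpl13a and Rps15 and did not for Rpl35, Rpl41 and Rps2.

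The 5 lowest canonical members stood at 480 to 565 FPKM. Rps27a, which is made as a fusion with ubiquitin, had 367, 399, 510 and 644 FPKM in A1, A2, B1 and B2. Rpl36a, on the X chromosome, had 362, 412, 578 and 603 FPKM. Both libraries of B were above both of A for these 2 genes. Rpl28 had 434, 501, 619 and 500.2 FPKM, with overlap. Rpl10a had 472, 508, 639 and 439 FPKM, and Rpl15, a gene of Diamond-Blackfan anaemia, had 506, 583, 680 and 490 FPKM. For Rpl10a and Rpl15, B2 was the lowest library and B1 the highest. Next in order came Rpl22, chosen for its place in the order, with 688 ± 41.8 FPKM, and its libraries, from 610 to 785 FPKM, overlapped those of Rpl15.

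**Figure D2:**
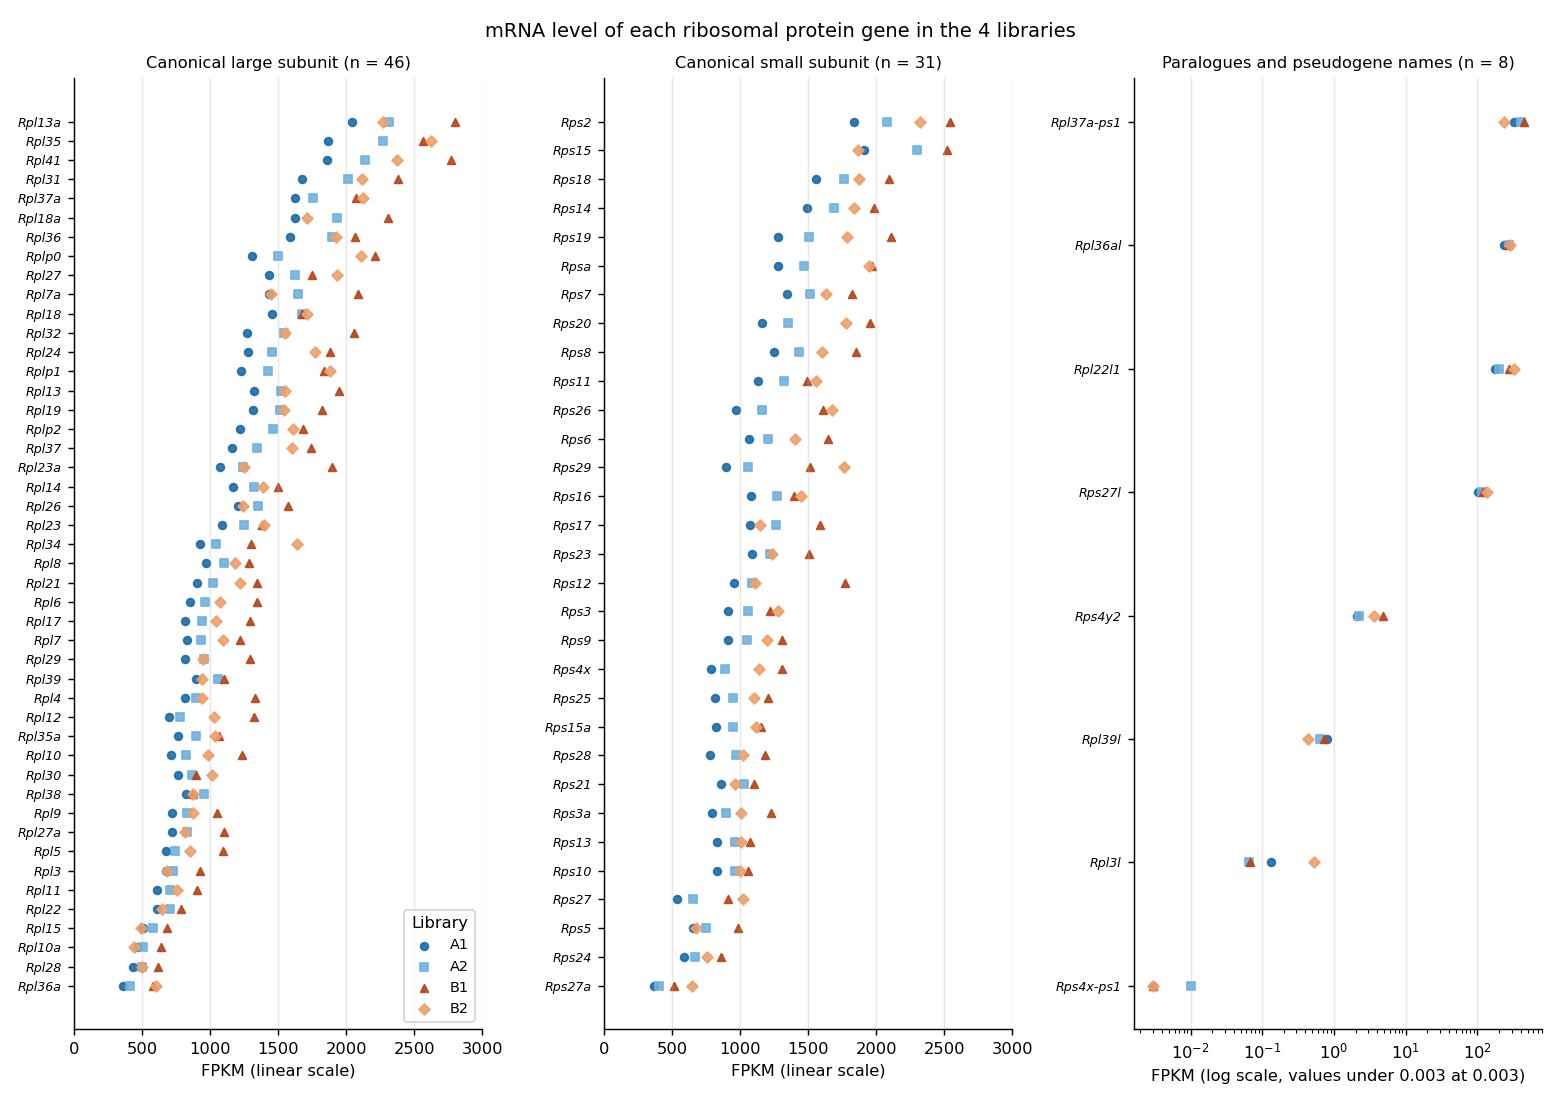
FPKM of each member in the 4 libraries, in 3 panels: canonical large subunit genes (linear axis), canonical small subunit genes (linear axis), and paralogues and pseudogene names (log axis, values under 0.003 FPKM drawn at 0.003). Each point is 1 library, circles and squares for A1 and A2 and triangles and diamonds for B1 and B2, with genes ordered by mean. A1 was the lowest library in 74 of 77 canonical genes and B1 the highest in 60.

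The medians of large and small subunit names were 1056 and 1172 FPKM, a ratio of 0.901. The ratio was 0.978 in A and 0.924 in B, and the spread between replicates was 0.0380 (SD, n = 2). For canonical genes alone the ratio of medians was 0.938, and it was 0.995 and 0.996 in the libraries of A and 0.901 and 0.996 in those of B. The ranges overlapped over nearly their whole length, with 489 to 2355 FPKM for canonical large and 480 to 2194 FPKM for canonical small subunit genes. At 1000 FPKM or more were 29 of 46 large and 22 of 31 small subunit genes.

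Mitochondrial ribosomal protein, proteasome and assembly factor genes had lower medians than both subunits. Mitochondrial ribosomal protein genes (n = 69) had a median of 46.2 FPKM and a highest value of 222 FPKM, below every canonical cytosolic gene. Proteasome genes (n = 41) had a median of 111 FPKM and a highest value of 392 FPKM, also below every canonical gene. Ribosome assembly factors (28 listed of 30) had a median of 32.1 FPKM. The highest of them were Npm1, which escorts preribosomes in the nucleolus, with 534 ± 76.2 FPKM, and Dkc1, the pseudouridine synthase of rRNA, with 315 ± 26.4 FPKM, and the lowest were the RNA polymerase I subunits Polr1a, with 6.93 ± 0.527 FPKM, and Polr1b, with 5.31 ± 0.604 FPKM (SD, n = 2).

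**Figure D3:**
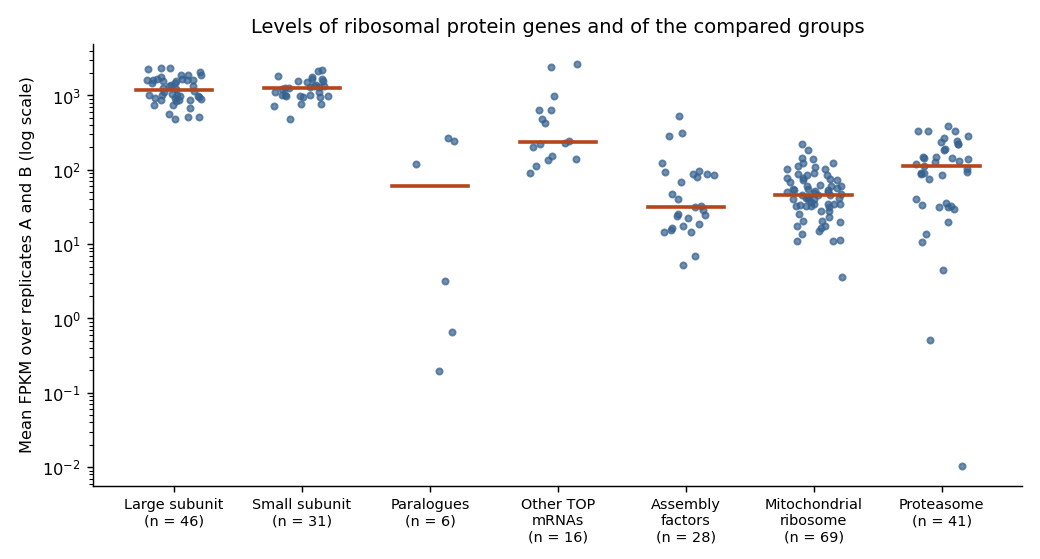
Mean FPKM over replicates A and B (vertical log axis) of each gene in 7 groups, with a horizontal line at each group's median. Canonical large and small subunit genes lay between 480 and 2355 FPKM, above all 69 mitochondrial ribosomal protein genes and all 41 proteasome genes, while the 6 paralogues spread from 0.198 to 267 FPKM.

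The P stalk and the 5S particle were taken as an example of neighbours in the structure. Rplp0, the base of the stalk, had 1305, 1495, 2211 and 2105 FPKM in A1, A2, B1 and B2. Its partners Rplp1 and Rplp2, which form the arms of the stalk as pairs of heterodimers, had 1225, 1427, 1837 and 1880 FPKM and 1217, 1463, 1679 and 1605 FPKM. Rplp0 was above both arm proteins in all 4 libraries, although the stalk holds more copies of the arm proteins, and the means were 1779 ± 536, 1592 ± 377 and 1491 ± 214 FPKM (SD, n = 2). The row of Rplp2 is 1 of those with a low coverage for its FPKM. Rpl12, next to the stalk base, had 694, 777, 1321 and 1026 FPKM. Rpl5 and Rpl11, which bind 5S rRNA and, when free, the p53 regulator Mdm2, had 677, 742, 1097 and 850 FPKM and 609, 701, 899 and 758 FPKM. For all 6 genes both libraries of B were above both of A, as for 76.8% of all members and 28.1% of all genes with at least 1 FPKM.

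Some small subunit proteins have a second life outside the ribosome, as Rpsa does as the laminin receptor precursor. Rpsa had 1279, 1468, 1966 and 1948 FPKM, with both libraries of B above both of A. Of the subunit genes with other names, Fau, a small subunit protein made as a ubiquitin-like fusion, had 1064, 1262, 1474 and 1298 FPKM. Gnb2l1, the scaffold protein also called RACK1, had 522, 585, 791 and 562 FPKM. A and B did not overlap for Fau and did for Gnb2l1, and both levels were within the range of the canonical members.

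The paralogues fell into 2 ranges of level. Rpl36al had 238, 275, 268 and 288 FPKM in A1, A2, B1 and B2. Rpl22l1 had 176, 199, 279 and 325 FPKM, and Rps27l, a p53 target, had 101, 117, 120 and 134 FPKM. These 3 were all above 100 FPKM in every library. Rps4y2, a copy of the X-linked Rps4x, had 2.10, 2.21, 4.79 and 3.67 FPKM. Rpl39l, known from male germ cells, had 0.800, 0.642, 0.725 and 0.430 FPKM, and Rpl3l, known from heart and skeletal muscle, had 0.133, 0.0645, 0.0674 and 0.526 FPKM. Testis markers were at 0 in every library for 3 of 4 genes, and striated muscle markers summed to 4.25 to 12.7 FPKM. The highest sum was in B2, where Rpl3l was also highest, but 11.3 FPKM of it was Tnnt2, and of the other 5 markers Actn2, Myh6, Myh7 and Ckm had their lowest values in B2 and Acta1 did not. The part of muscle RNA in the level of Rpl3l was not tested. Values under 1 FPKM are the least precise of those given here.

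Set against its partner, each paralogue held a different share. Rpl22l1 stood at 28.9% and 28.2% of the level of Rpl22 in A1 and A2 and at 35.6% and 50.2% in B1 and B2. Rps27l stood at 18.4% of Rps27 in A and at 13.2% in B, each the mean of its libraries. Rpl36al stood at 65.8% and 66.8% of Rpl36a in A and at 46.4% and 47.7% in B. The share of Rpl22l1 was thus higher in both libraries of B, and those of Rps27l and Rpl36al were lower. Rps27l itself had 109 FPKM in A and 127 FPKM in B, and Rps27 had 591 and 965 FPKM. Rps4y2 was at 0.302% ± 0.0617 of Rps4x, Rpl39l at 0.0654% ± 0.0136 of Rpl39 and Rpl3l at 0.0282% ± 0.0197 of Rpl3 (SD, n = 2).

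Many ribosomal protein genes have processed copies elsewhere in the genome, which makes the assignment of reads uncertain. In the tables (assembly rn6) 14 of the names had several rows, with 21 further rows in all, of which 19 spanned under 1000 bp. The leading row held at least 90% of the FPKM of the name in 10 of the 14. Rps19 was split almost evenly between a row at chr9:16802280-16807982 with 50.1% and another at chr1:81750928-81756629 with 49.9%. Rpl35a had 53.7% in a row of 238201 bp on chromosome 12 and 43.9% in a row of 3199 bp at chr11:70963262-70966460. Rpl10a had 80.9% at chr20:7908309-7910867 and 19.1% in a row of 722 bp on chromosome 4.

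The row named Rpl37a-ps1 lay on that of Rpl37a, with 2064 bp in common on the same strand of chromosome 9. It had 323, 407, 444 and 232 FPKM in A1, A2, B1 and B2, against 1626, 1754, 2071 and 2120 FPKM for Rpl37a, so the division of reads between both names is uncertain. Rps4x-ps1 was listed at 0 in 3 libraries and at 0.0103 FPKM in A2. The row of Rpl36al lay on chromosome 18, while RefSeq places the gene on chromosome 6 of GRCr8. The leading rows of Rps19 and Rpl35a also differed in chromosome from RefSeq, and the other 65 members with a matched start did not.

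The genes themselves were short. After leaving out 6 rows whose coverage per FPKM was 0.5 times the value of the library and which spanned 14886 to 594395 bp (Rpl35a, Rpl7a, Rpl8, Rplp2, Rps6 and Rps9), the leading rows of 71 canonical genes had a median span of 2946 bp. The median span was 19951 bp over the rows of all genes at 1 FPKM or more. By the leading rn6 row of each name, the canonical genes were spread over 19 chromosomes, with 14 on chromosome 1 and 4 on X (Rpl10, Rpl36a, Rpl39 and Rps4x).

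Replicates A and B were then compared gene by gene, as log2(FPKM + 1) of the replicate means. Nearly all members had a higher level in B. Over the 82 members with a mean of at least 1 FPKM the median difference was 0.32 on the log2 scale, and 80 of the 82 were above 0, against 46.8% of all genes and 56.1% of genes with at least 100 FPKM. Over all 10481 genes at that level the median was -0.03, and over 1064 genes with at least 100 FPKM it was 0.04. The differences of the canonical members were also close together, with an interquartile range of 0.18, against 0.48 over all genes and 0.43 over those with at least 100 FPKM.

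Both libraries of B were above both of A for 63 of the 82 members (76.8%), and for none were both below. Over all genes 28.1% were above in this way and 32% below, and over genes with at least 100 FPKM 33.5% and 24.2%. The count was 33 of 46 (71.7%) for canonical large and 27 of 31 (87.1%) for canonical small subunit genes. A difference of at least 1 on the log2 scale without overlap, which 6.2% of all genes showed, was reached by 0 members, and no test was made. At a difference of at least 0.58 the count was 9 of 82, against 16.5% of all genes. After scaling the libraries by the median of ratios over genes the median was 0.34 and 65 of 82 members had both libraries of B above, against 29.7% of all genes. Without B2 the median was 0.41, and B1 alone was above both libraries of A for 80 of 82 members, a rule that is easier to meet and that 40.3% of all genes met.

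**Figure D4:**
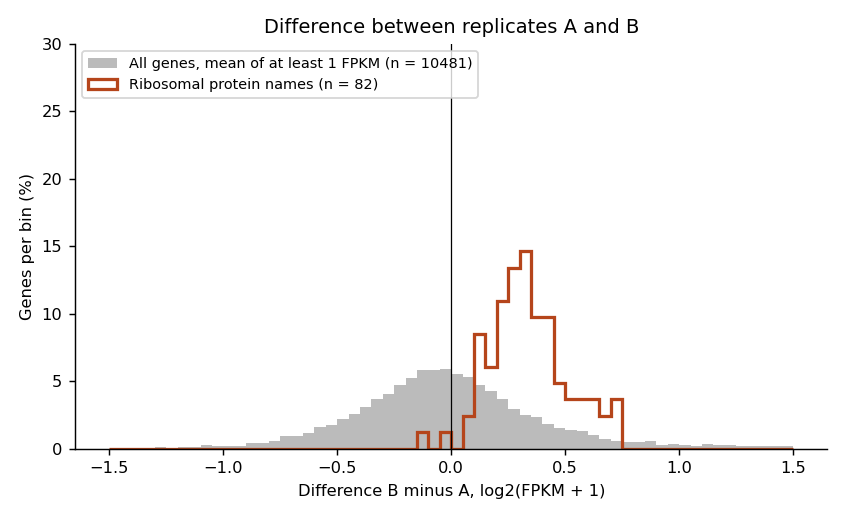
Difference B minus A in log2(FPKM + 1) (horizontal axis) as the percentage of genes per bin (vertical axis), for the 10481 genes at 1 FPKM or more (filled, of which 251 lie beyond 1.5 in either direction and are not drawn) and for 82 ribosomal protein names (outline). The outline sits to the right of 0 with its median at 0.32, and all genes are centred at -0.03.

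The marker genes of mesenchyme and meninges were higher in B in the same samples, by the sums given at the start, and the neural progenitor sum was lower. Most of that lower sum was Fabp7, with 16800 and 18557 FPKM in A1 and A2 and 6520 and 5485 FPKM in B1 and B2. The other 8 progenitor markers summed to 4072 and 4378 FPKM in A and 3420 and 5175 FPKM in B, with 4 of them lower in both libraries of B and 4 overlapping. Most of this sum was Vim, which mesenchyme also expresses, and the 7 without it summed to 1189 and 1207 FPKM in A and 768 and 717 FPKM in B. The part of these markers in the difference of the ribosomal protein genes was not tested. In RNA from whole cultures, fewer cells of a type and less RNA per cell cannot be told apart. Replicate and culture are a single factor here.

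The 9 members at 0.58 or more were Rps29, Rps4y2, Rps27, Rpl22l1, Rpl12, Rplp0, Rps26, Rpl36a and Rps27a, all with both libraries of B above both of A. Those given next are the canonical genes with the largest and smallest ratios, named after their values were seen. Rps29, a zinc-binding protein of the small subunit, had 897 and 1057 FPKM in A1 and A2 and 1516 and 1762 FPKM in B1 and B2, a ratio of B over A of 1.68. Rps27, also zinc-binding, had 533, 648, 908 and 1022 FPKM, a ratio of 1.63. Rpl12 and Rplp0, the stalk proteins above, had ratios of 1.60 and 1.54, and Rps26, which contacts mRNA at the exit side, 1.54. Their libraries did not overlap between A and B. Of the paralogues, Rps4y2 and Rpl22l1 had ratios of 1.97 and 1.61, and Rpl3l had the highest ratio of all, from 0.0988 FPKM in A to 0.297 FPKM in B, with overlap and with only B2 high. The smallest ratios of canonical genes were those of Rpl38, Rps15 and Rpl39, with 0.988, 1.04 and 1.05, and for these A and B overlapped. Rpl37a-ps1, at 0.927, and Rpl39l, at 0.801 with levels under 1 FPKM, were lower still. Rpl38, for which a role in the translation of Hox mRNAs is known in the mouse, had 822, 953, 877 and 877 FPKM.

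Lists within the ribosome gave similar counts. Their genes are themselves members, so the counts are to be read first against the 76.8% of members above and 0 below. Over all genes 28.1% were above and 32% below. Of 8 exit tunnel proteins 6 had both libraries of B above both of A, with a median difference of 0.31. Of 17 genes mutated in Diamond-Blackfan anaemia, a failure of red cell production, 14 were above, with a median of 0.33. For the 6 genes of the P stalk and 5S particle the median was 0.47.

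Genes of related function did not all go with them. Other TOP mRNAs had a median difference of 0.33, and 10 of 16 had both libraries of B above both of A and 0 below. The highest of them were the elongation factor Eef1a1, with 1987, 2168, 3575 and 2862 FPKM in A1, A2, B1 and B2, and Tpt1, with 1938, 2200, 2943 and 2472 FPKM. The lowest were the histone chaperone Nap1l1, with 94.2, 98.1, 137 and 125 FPKM, and the initiation factor Eif4b, with 80.3, 82.3, 104 and 97.4 FPKM. For these 4 genes the libraries of A and B did not overlap. Ribosome assembly factors had a median of -0.10, with 4 of 28 above and 8 below. Mitochondrial ribosomal protein genes had a median of -0.03, with 13 of 69 above and 16 below. Proteasome genes had a median of 0.05, with 13 of 39 above and 3 below.

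Technical libraries of the same replicate also differed. A2 was above A1 for all 77 canonical members, by a median of 0.20 on the log2 scale, and no member reached a difference of 0.5, against 2.65% of all genes. The direction was shared by 57.9% of all genes and by 83.6% of genes with at least 100 FPKM, whose median was 0.13. B2 was below B1 for 61 of the 77, with a median of -0.17, and 7 of 82 members reached 0.5, against 17.4% of all genes. Of all genes 50.9% were lower in B2. The difference between A and B depended on which libraries were paired, with a canonical median of 0.51 for B1 minus A1 and 0.15 for B2 minus A2. The other pairings, B1 minus A2 and B2 minus A1, gave canonical medians of 0.33 and 0.34. The median was above 0 in every pairing. For B2 minus A2 it was slightly smaller in size than the medians between technical libraries, and for the other pairings it was larger.

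**Figure D5:**
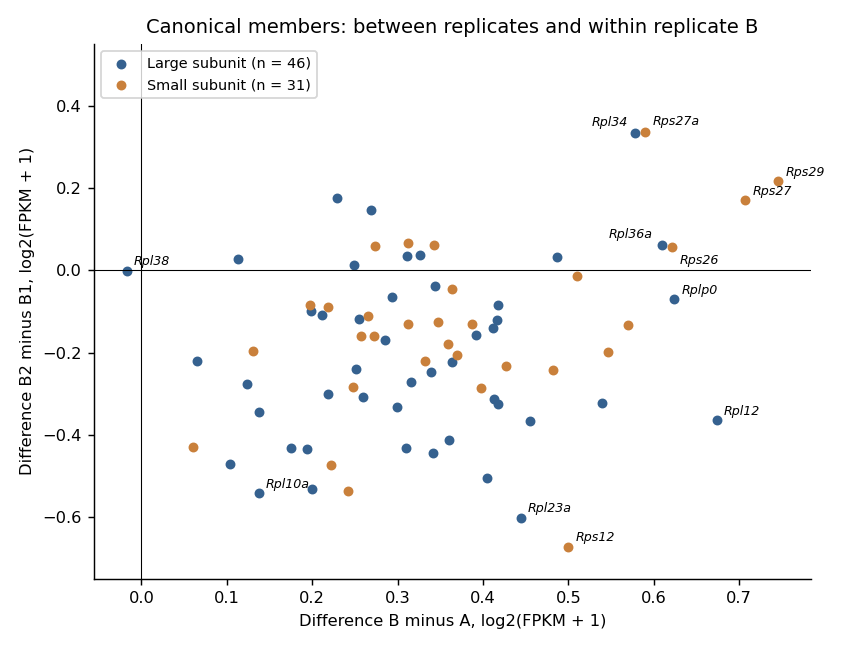
Each of the 77 canonical members by its difference B minus A (horizontal axis) and its difference B2 minus B1 (vertical axis), both in log2(FPKM + 1), coloured by subunit. Of the 77 points 76 lie to the right of 0 and 61 below 0, with Rps29 farthest right and Rps12 lowest.

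The largest differences between B1 and B2 were in Rpl37a-ps1, by -0.94 with the values above, Rps12 and Rpl23a. Rps12, a protein of the small subunit beak, had 951, 1083, 1767 and 1109 FPKM in A1, A2, B1 and B2, a difference of -0.67 between B2 and B1. Rpl23a, at the exit tunnel, had 1072, 1238, 1895 and 1248 FPKM, a difference of -0.60. In both genes B1 stood apart while B2 was close to A2. Between A1 and A2 the largest differences were 0.33 in Rpl37a-ps1, 0.32 in Rps28 and 0.28 in Rpl35. Rps28 had 778, 969, 1183 and 1016 FPKM.

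The order of the canonical genes was kept between libraries. The Spearman correlation of levels over the 77 genes was 0.994 between A1 and A2, 0.921 between B1 and B2, and 0.920 to 0.939 between libraries of A and of B. These correlations are across genes, which share their libraries and lengths and are not independent replicates, and no p-value is given.

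As a share of the summed FPKM of the canonical genes, which removes a common shift, 22 genes had both libraries of B above both of A, 22 had both below, and 33 overlapped. By FPKM itself 28.1% and 32% of all genes were above and below. The counts are near that background, but it is of another measure, and none was computed for shares. Shares of a fixed total must also balance. Rps29 took 1.12% and 1.14% in A1 and A2 and 1.31% and 1.72% in B1 and B2. Rplp0 took 1.62% and 1.61% in A and 1.91% and 2.05% in B. Rpl38 took 1.02% and 1.03% in A and 0.758% and 0.854% in B. The ratio of B over A for these shares ran from 0.786 for Rpl38 to 1.34 for Rps29, and that of B2 over B1 from 0.707 to 1.42. The range within replicate B was thus wider than that between replicates, and that of A2 over A1, from 0.933 to 1.08, was narrower. The ratios of B over A are of replicate means and the others of single libraries, with B2 the shallowest. These ranges are therefore not like measures.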

How the data were processed

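PolyA-selected RNA libraries of 2 biological replicates with 2 technical libraries each were used, and the Start-seq libraries were not analysed here. Values of 1 gene are not reported here. The authors aligned reads to rn6 with STAR, and the labels also name cutadapt, HISAT and StringTie, with versions not given in the sources used here. The deposited tables give coverage (a signal, mean read depth per base), FPKM and TPM for each gene row, as normalised by the authors. How reads shared by copies of a gene were assigned is not given.

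Rows of the same name were summed, and technical libraries were averaged within A and B before the mean and SD (n = 2). Differences are of log2(FPKM + 1), with 1 FPKM as the lowest mean kept. A gene differed where the absolute difference was at least 1 and the libraries of A and B did not overlap. No p-value was computed, because 2 replicates of 1 condition allow no test. The tables hold no read counts, and the depth of each library was taken from coverage per FPKM, so no counting interval is given.

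Members, lists and thresholds were chosen with earlier results of these data known. Values in every library are given for the 5 highest and the 5 lowest canonical members, the P stalk and 5S list, Rps27a, Rpsa, the paralogues, called members, and the 3 largest differences between technical libraries. Of the assembly factors and the other TOP mRNAs the 2 highest and 2 lowest are named. No mitochondrial ribosomal protein or proteasome gene is named, and any other gene was chosen after its values were seen. Promoter sequences are from RefSeq (GRCr8), matched by symbol. Alternatives were TPM, the highest row only, canonical members only, leaving out B2, A or B, median-of-ratios scaling, and other pseudocounts and thresholds. Python 3.11.15, pandas 2.3.3, numpy 2.4.6 and matplotlib 3.10.9 were used, and the scripts were tested on simulated data.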

Additional observations from a re-analysis of the deposited data

Results flagged for a closer look

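Each of 31 values (27 named members and 4 summaries of a library) was examined for a library far from the other 3, by the gap to its nearest neighbour over the whole range. Chance alone marks about 1 in 20 such groups of independent samples, and these libraries are technical pairs, so that this rate need not hold. Rpl3l in B2, at 0.526 FPKM, stood apart from 0.0645 to 0.133 FPKM in the others. Coverage per FPKM in B2 was 6.83, against 22.7 to 24.4. The ratio of canonical large to small subunit medians was 0.901 in B1, against 0.995 to 0.996 in the others.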

How the results depend on the processing

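Across 46 alternatives (TPM, highest row only, canonical members only, without B2, A or B, median-of-ratios scaling, a pseudocount of 0.1, a minimum of 10 FPKM or none, and a minimum difference of 0.58 or none) for 7 results, 40 stayed within 1 SD, or for counts within 1.5-fold, 6 moved further, and 0 reversed. The SD was that between replicates, except for the median difference of B minus A, where it was that of the technical pairings B1 minus A1 and B2 minus A2 (0.26), since this difference has no replicate. The limit of 0.26 is wide against the median difference of 0.32. A count of 0 that stayed at 0 was marked as unchanged. The tally is thus a weak check of stability. The median level of members was 1868 in TPM in place of 1116 FPKM, which is a change of unit. The ratio of large to small subunit medians was 0.946 with the highest row of each name only and 0.940 without library B2, against 0.901. Members differing between A and B numbered 9 with a minimum difference of 0.58 and 63 with none, against 0. Leaving out replicate A or B in turn gave a median level of 977 to 1248 FPKM, a ratio of large to small subunit medians of 0.924 to 0.978, a share of TPM of 14.9% to 18.2%, and 81 members with at least 100 FPKM in either case. The count of members with both libraries of B above both of A, whose alternatives were chosen after seeing the data, ran from 60 of the 77 canonical members to 80 without B2. No paired analysis was possible because the 2 replicates are the only groups compared. Depth limits the values under 1 FPKM, and the shallower B2 most.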
